A study of Caenorhabditis elegans with 22 samples.

Results

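The C-type lectin (*clec*) genes of *C. elegans* were taken as every gene named clec- followed by digits alone. The names matched 240 gene IDs of the 20392 in the count tables (1.18%), and *clec-15* names 2 neighbouring IDs of these. Members were picked by name and not by a measured value, though earlier results of these data were known when the family was chosen. RNA was sequenced from cells sorted out of dissociated L3 larvae in 11 groups of 2 biological replicates, 22 libraries in all. Body wall muscle came from N2 (Bristol), called WT here, from *met-2(n4256) III*, from *set-25(n5021) III* and from *met-2 set-25*, called the double mutant, with both alleles, and was sorted by red fluorescence of a *myo-3* promoter reporter that these strains share. Seam cells, the lateral epidermal stem-like cells that make cuticle, came from the same 4 genotypes and had to be positive for a green seam reporter and for red AJM-1, a junction protein. WT non-muscle cells are the cells of the muscle sort outside the muscle gate, a mixture of types. Their title and source name say non-muscle while their tissue label reads body wall muscle, and the title was followed. The last pair of groups was muscle from a *met-2::degron* strain, which expresses the TIR1 adaptor in all tissues from the *eft-3* promoter and was grown with or without auxin, so that both groups carry the tag and TIR1 and differ in auxin alone. MET-2 deposits mono- and dimethylation of histone H3 lysine 9 and SET-25 its trimethylation.

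C-type lectins share a fold that in many members of animal families binds sugars with the help of calcium. In *C. elegans* the family is very large, many members are secreted, and many are known as genes that respond to bacteria or fungi in the intestine and epidermis, where they are placed among the antimicrobial effectors downstream of the p38 kinase PMK-1 and other pathways. For most members no molecular role is known, so a role is named below only where one is established.

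Chromosome V holds the most members with 86 (35.8%), then IV with 53, II with 48 and I with 36, against 14 on III and 3 on X. Of all 19870 genes placed, V holds 5013, III 2627 and X 2714. All 240 are annotated as protein coding. In gene order, 125 members stand directly beside another member, in 41 runs, the longest of which holds 13 genes on V. Such neighbours can be close copies, and a read with more than 1 alignment was left out of the counts, so levels within a run can be underestimates.

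The libraries held 11883702 to 24752059 counts. A gene reached 10 counts for 8015 to 8640 genes in the muscle genotype libraries, 9778 to 12898 in seam cells, 12285 and 12688 in non-muscle cells and 9891 to 11486 in degron muscle. The sorted cells carried their own markers. *myo-3*, a body wall muscle myosin, had 4457 and 4100.4 CPM (counts-per-million of the library total) in WT muscle, 643 and 762 in non-muscle cells and 24.3 and 23.2 in WT seam cells, and *grd-10*, a seam gene, had 1603 and 1709 CPM in WT seam cells and 1.26 and 2.49 in WT muscle. The transcripts of the mutated genes were still counted: *met-2* had 14.03 to 40.9 CPM in the 8 libraries with the *met-2* allele and 18.2 to 181 in the other 14, and *set-25* had 4.11 to 21.3 and 9.64 to 40.6. The counts cover whole genes and give no check of the alleles.

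Of the 240 members, 54 had no count in any library and 88 never exceeded 3 counts in a library, the floor used here, below which a group is given as a bound. A mean level of 1 RPKM (CPM per kilobase of exon) was reached by 74 members in at least 1 group, by 25 of them in 1 group alone, and by 3 in every group. Across the WT groups, 59 members reached 1 RPKM somewhere. Non-muscle cells had 53 at this level (22.1% of the family, against 59% of all genes), seam cells 31 (12.9% against 48.2%) and muscle 10 (4.17% against 36.4%). All 8 members that reached 1 RPKM in both muscle and seam cells did so in non-muscle cells too. Summed over the family, the CPM were 177.4 and 176.8 in WT muscle, 528 and 485 in WT seam cells and 1022 and 705 in non-muscle cells. The 8 libraries of the muscle genotypes lay between 177 and 242 CPM, while the 8 of seam cells ran from 208 in *set-25* to 761 in the double mutant.

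**Figure D1:**
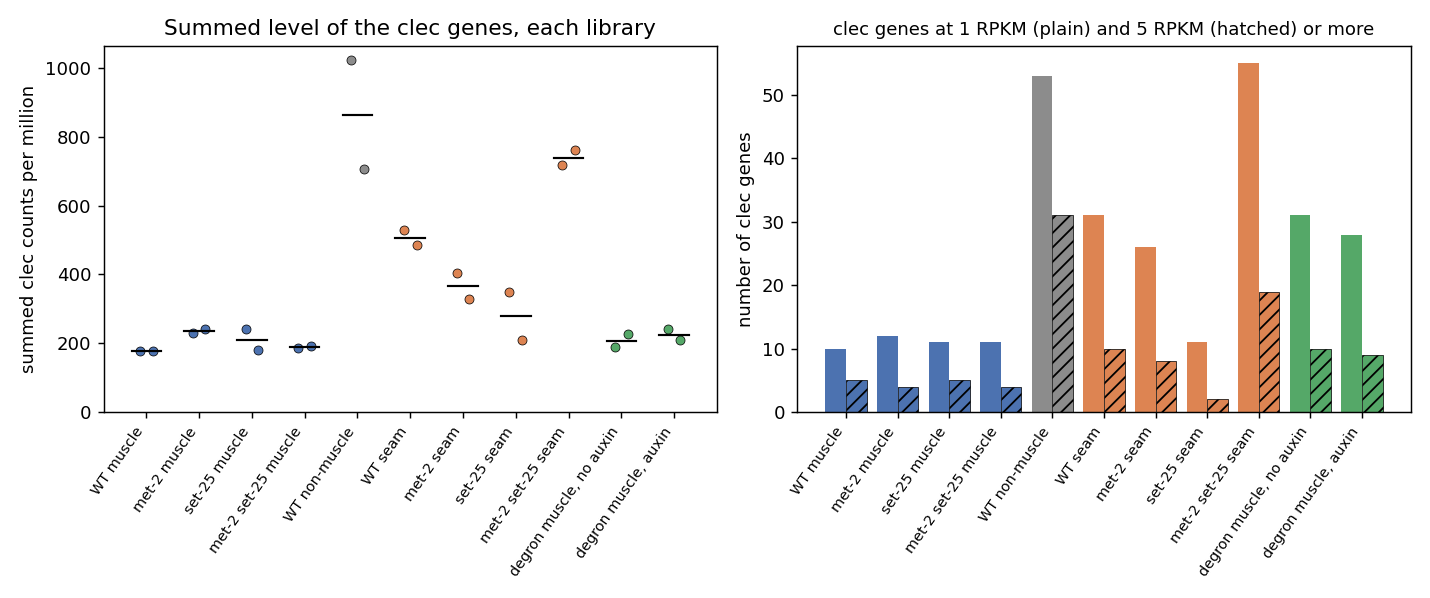
Left, summed CPM of all *clec* genes in each library (points) with the group mean (bar), by group. Right, number of *clec* genes with a group mean of at least 1 RPKM (plain bars) and 5 RPKM (hatched bars). Non-muscle cells and double mutant seam cells hold the most expressed members, 53 and 55 at 1 RPKM, and WT muscle 10.

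In WT muscle, the levels per length were led by *clec-264* with 72.1 and 70.8 RPKM. *clec-149* followed with 31.1 and 47.6, *clec-221* with 23.97 and 16.7, *clec-90* with 9.06 and 11.7 and *clec-178* with 4.39 and 8.33. No neighbours in this order overlapped between their replicates. These 5 genes took 86.4% of the reads counted for the family in WT muscle, *clec-264* alone 49.8% (a share of reads, not corrected for length).

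WT muscle was compared with WT non-muscle cells to set muscle against the other cells of the larva, and 3 members were higher in muscle: *clec-264*, *clec-149* and *clec-221*. *clec-264* had 88.9 and 87.3 CPM in muscle and 26.5 and 20.1 in non-muscle cells (fitted log2 change 3.43 ± 0.19 (SE), adjusted p = 4.43e-05 with edgeR's quasi-likelihood test and Benjamini-Hochberg adjustment). *clec-149* had 30.5 and 46.6 against 3.16 and 5.72 CPM (4.61 ± 0.42 (SE), adjusted p = 0.000229), and *clec-221* 16.4 and 11.5 against 4.23 and 4.11 CPM (3.25 ± 0.41 (SE), adjusted p = 0.00102). Both muscle libraries lay above both non-muscle libraries for each of the 3. The fitted changes exceed the ratio of CPM because TMM, which scales libraries on the bulk of their genes, sets the 2 populations on another base than library totals do. The median of all genes was -0.57 (log2) after TMM and -2.07 with library totals alone. With library totals *clec-221* lost its call (adjusted p = 0.0139).

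The opposite direction was more common: 21 of the 58 members tested (36.2%) were lower in muscle, where 23.4% of all 12107 genes tested were, and 3 (5.17%) were higher, where 9.17% of all genes were. The remaining members of the 240 had too few counts to be tested, here as in each comparison, and a member that passes this filter only through its higher group is bound to differ. A call here and below means an adjusted p under 0.01 over all genes and a change above 2-fold. The median fitted log2 change of the tested members was -4.22, beside -0.57 for all genes. It was -2.72 with the 29 members that were at the floor in 1 group set to their bound. Bounds are ratios of CPM without TMM, so a median that includes them mixes 2 scalings, here and below. With library totals the all-gene median was -2.07. The non-muscle cells were led per length by *clec-87* (78.9 and 58.2 RPKM), *clec-123* (73.5 and 15.6), *clec-184* (48.5 and 34.9), *clec-73* (60.6 and 17.6) and *clec-225* (29.8 and 37.6). *clec-87* had 88.9 and 65.5 CPM in non-muscle cells and 1.33 and 0.906 in muscle (-4.59 ± 0.36 (SE), adjusted p = 0.0001303), and *clec-180* 83.7 and 58.5 and 0.279 and 0.151 (-6.81 ± 0.46 (SE), adjusted p = 7.39e-05). In each of these pairs the groups lay far apart.

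For several members the muscle libraries were at the floor. *clec-184* had 60.5 and 43.5 CPM in non-muscle cells, where both muscle libraries were at or under the floor, at least 239-fold lower in muscle (adjusted p = 0.0001398). *clec-198* had 21.3 and 20.1 CPM against 0 in both muscle libraries (at least 94.8-fold lower), and its neighbour *clec-199* had 52.4 and 38.9 against 0.1397 and 0 (at least 209-fold lower). These bounds are ratios of CPM by library totals without TMM, and are not on the scale of the fitted changes. *clec-123*, *clec-79* and *clec-73* shared an uneven pattern, high in replicate 1 of the non-muscle cells and lower in replicate 2: 134 and 28.4, 89.97 and 29.2 and 115 and 33.4 CPM. The same 3 genes were also higher in replicate 1 than in replicate 2 of *set-25* muscle, with 5.46 and 0.122, 3.06 and 0.122 and 2.56 and 0.0609 CPM in the 2 replicates. In every seam library and every degron library each of the 3 had at most 0.246 CPM.

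Leaving out 1 library at a time from this comparison left 12 lower members without WT muscle replicate 2 or without either non-muscle library. *clec-123* lost its call without either muscle library (adjusted p = 0.0156 and 0.0177) and *clec-73* without muscle replicate 2 (0.0154). Among all genes, the share of calls that were higher in muscle was 28.1% and became 12% with library totals, which called 34 members lower.

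**Figure D2:**
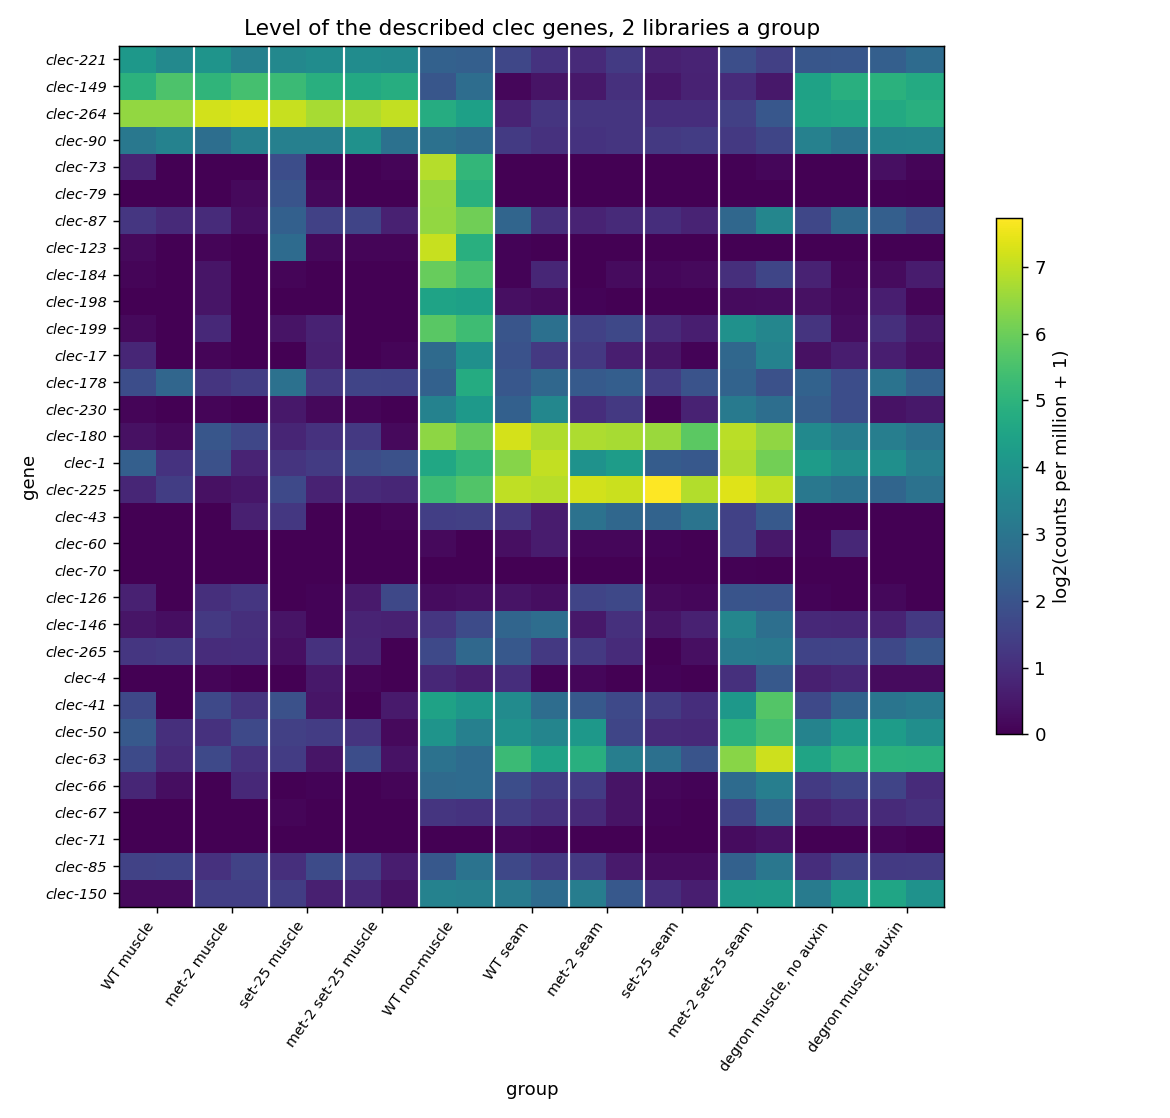
Level of the 32 described *clec* genes (rows) in the 22 libraries (columns, 2 a group), as log2(CPM + 1), with rows ordered by the column where each is highest. *clec-264* and *clec-149* are highest in muscle columns, *clec-73*, *clec-79* and *clec-123* in non-muscle replicate 1, and *clec-180*, *clec-1* and *clec-225* in seam columns.

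WT seam cells and WT muscle differed in other members again. *clec-1* (85.9 and 142 RPKM) and *clec-225* (98.3 and 92.05) led in seam cells, and their replicate ranges overlapped. *clec-180* (53.7 and 39.6), *clec-63* (28.3 and 16.2) and *clec-230* (6.81 and 17.7) came next, *clec-63* and *clec-230* with overlapping ranges. Compared with muscle, 13 of 37 members tested (35.1%) were higher in seam cells, where 29.3% of all 10948 genes were, and 4 (10.8%) were lower, where 14.8% of all genes were. The median fitted change was 2.45 (2.05 with 13 members set to their bound), beside 0.41 for all genes.

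*clec-180* had 151 and 111 CPM in seam cells and 0.279 and 0.151 in muscle (8.23 ± 0.34 (SE), adjusted p = 8.16e-06). *clec-225* had 127 and 119.3 and 0.769 and 1.66 CPM (5.70 ± 0.33 (SE), adjusted p = 2.92e-05), and *clec-1* 78.7 and 130.1 and 4.05 and 1.21 (4.34 ± 0.54 (SE), adjusted p = 0.000732). *clec-63*, *clec-230*, *clec-150*, *clec-199* and *clec-146* were also higher, with seam levels of 37.2 and 21.3, 4.22 and 10.9, 8.29 and 5.52, 3.09 and 6.18 and 4.73 and 5.796 CPM. Muscle libraries held at most 2.31 CPM of each of these 5. For *clec-230*, *clec-150* and *clec-199* muscle was at the floor, so that the rise in CPM, without TMM, was at least 34.7-fold, 31.7-fold and 21.3-fold. The all-gene median log2 change was 0.41 after TMM and 1.37 with library totals.

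The 4 members that were lower in seam cells were the leading muscle genes. *clec-264* went from 88.9 and 87.3 CPM in muscle to 0.703 and 1.27 in seam cells (-7.46 ± 0.30 (SE), adjusted p = 7.51e-06), *clec-149* from 30.5 and 46.6 to 0.0937 and 0.331 (-8.47 ± 0.52 (SE), adjusted p = 3.73e-05), *clec-221* from 16.4 and 11.5 to 2.16 and 1.21 (-4.004 ± 0.39 (SE), adjusted p = 0.000276) and *clec-90* from 7.55 and 9.74 to 1.499 and 1.16 (-3.66 ± 0.39 (SE), adjusted p = 0.000409). *clec-264* shares 26 exonic bases with *fkb-6* on the other strand and *clec-221* shares 20 with F17C11.4. *fkb-6* had 118 and 112 CPM in muscle and 167 and 173 in seam cells, opposite to *clec-264*, whereas F17C11.4 had 391 and 408 and 84.2 and 85.95, in the same direction as *clec-221*. The muscle and seam libraries come from separate tables, strains and sorts, and these cannot be told apart from the cell type. The count of higher members fell to 5 without seam replicate 1, to 4 without seam replicate 2. It was 20 with library totals, where 77.2% of the calls over all genes were higher against 66.4% with TMM. *clec-146* and *clec-199* lost their calls without either seam library (adjusted p from 0.0226 to 0.139), *clec-150* likewise (0.0402 and 0.0114), and *clec-230* without replicate 2 (0.0456).

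**Figure D3:**
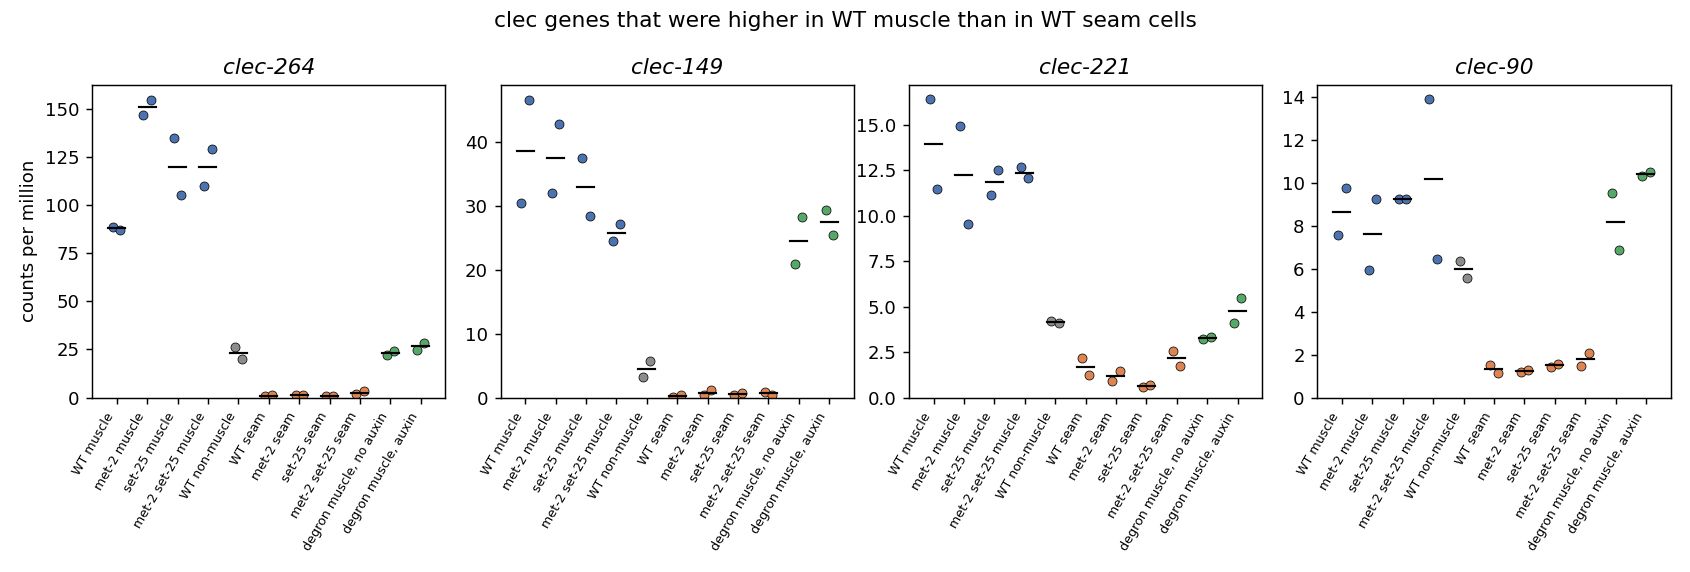
CPM (linear axis from 0) of the 4 *clec* genes called lower in WT seam cells than in WT muscle, in each library (points) with the group mean (bar). *clec-264* reads 87.3 to 155 in muscle genotypes and at most 3.29 in seam libraries, and *clec-149* at least 24.5 and at most 1.11.

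The degron muscle had its own order of members. *clec-149* (21.3 and 28.9 RPKM), *clec-63* (16.5 and 23.9), *clec-264* (17.9 and 19.5), *clec-1* (19.5 and 13.96) and *clec-50* (9.603 and 16.4) led without auxin, each with a replicate range that overlapped the next. At 1 RPKM, 31 members (12.9%) were expressed there against 10 (4.17%) in WT muscle, beside 45.9% and 36.4% of all genes. The 11 hypodermis markers had summed CPM of 951 and 661 in untreated degron muscle and 38.3 and 40.9 in WT muscle. The summed CPM of 13 intestine markers went the other way, with 1572 and 2660 against 3077 and 3779. The number of these markers with a mean above 5 CPM did not, at 5 in untreated degron muscle and 2 in WT muscle. The part of these differences in the count of members was not tested. *clec-264* had 22.1 and 24.05 CPM in untreated degron muscle, below 88.9 and 87.3 in WT muscle, and *clec-63* 21.6 and 31.5, above 2.31 and 0.906. The degron libraries form a table of their own and no test was made between them.

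Seam cells were the tissue in which *clec* genes were called between genotypes. The number of members at 1 RPKM was 31 for WT, 26 for *met-2*, 11 for *set-25* and 55 for the double mutant, and at 5 RPKM it was 10, 8, 2 and 19. The summed family CPM were 528 and 485 in WT, 404 and 329 for *met-2*, 349 and 208 for *set-25*, and 718 and 761 for the double mutant. The double mutant libraries lay above all others and both single mutants below WT. Over all genes the share at 1 RPKM moved in the same order, 48.2% in WT, 46.7% for *met-2*, 41.1% for *set-25* and 53.4% for the double mutant.

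In *set-25* seam cells 8 of the 65 members tested (12.3%) were lower than in WT, where 10.3% of all 12591 genes were, and 1 (1.54%) was higher, where 0.342% of all genes were. The share of lower members is near that of all genes. The median fitted log2 change of the tested members was -2.35 (-1.44 with 23 members set to their bound), beside -0.05 for all genes. Both *set-25* libraries lay below both WT libraries in CPM for 49 of the 65 members, beside 49.7% of all genes tested, and 34 members had an unadjusted p under 0.05 with a lower level.

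*clec-1*, the leading seam member, had 78.7 and 130.1 CPM in WT and 3.75 and 3.38 in *set-25* (-4.59 ± 0.34 (SE), adjusted p = 0.000111). *clec-230* fell from 4.22 and 10.9 to 0.0493 and 0.666 CPM (-4.10 ± 0.77 (SE), adjusted p = 0.00483) and *clec-146* from 4.73 and 5.796 to 0.345 and 0.618 (-3.15 ± 0.53 (SE), adjusted p = 0.00288). *clec-150* fell from 8.29 and 5.52 to 1.04 and 0.571 (-2.80 ± 0.50 (SE), adjusted p = 0.003797) and *clec-199* from 3.09 and 6.18 to 0.888 and 0.571 (-2.37 ± 0.44 (SE), adjusted p = 0.00462). In all 5 the groups were apart, by the widest margin for *clec-1*.

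Another 3 members fell to near 0. *clec-265* went from 3.42 and 1.44 to 0 and 0.238 CPM (-3.99 ± 0.81 (SE), adjusted p = 0.00719). *clec-66* had 2.58 and 1.66 CPM in WT and 0.0987 and 0.0476 in *set-25*, at or under the floor (at least 14.6-fold lower, adjusted p = 0.00736). *clec-67*, a reporter gene of the PMK-1 immune pathway, had 1.59 and 1.16 and 0.0493 and 0 (at least 9.47-fold lower, adjusted p = 0.00935).

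*clec-43* went the other way, from 1.31 and 0.497 CPM in WT to 4.54 and 6.899 in *set-25* (2.92 ± 0.51 (SE), adjusted p = 0.00355). The 2 other leading seam genes were not called: *clec-225* had 127 and 119.3 CPM in WT and 211 and 115 in *set-25* (adjusted p = 0.06603), and *clec-180* had 151 and 111 and 93.98 and 54.6 (adjusted p = 0.164). In the *set-25* libraries 58.5% of the family's reads came from *clec-225*.

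Only *clec-1* kept its call in *set-25* seam cells whichever library was left out (adjusted p at most 0.00206 over the 11 alternatives). The number of lower members was 4 without WT replicate 1, 2 without WT replicate 2 and 4 without either *set-25* library, and *clec-43* lost its call without WT replicate 2 (adjusted p = 0.0204) or *set-25* replicate 2 (0.0126). DESeq2 called 17 members lower and library totals 13.

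**Figure D4:**
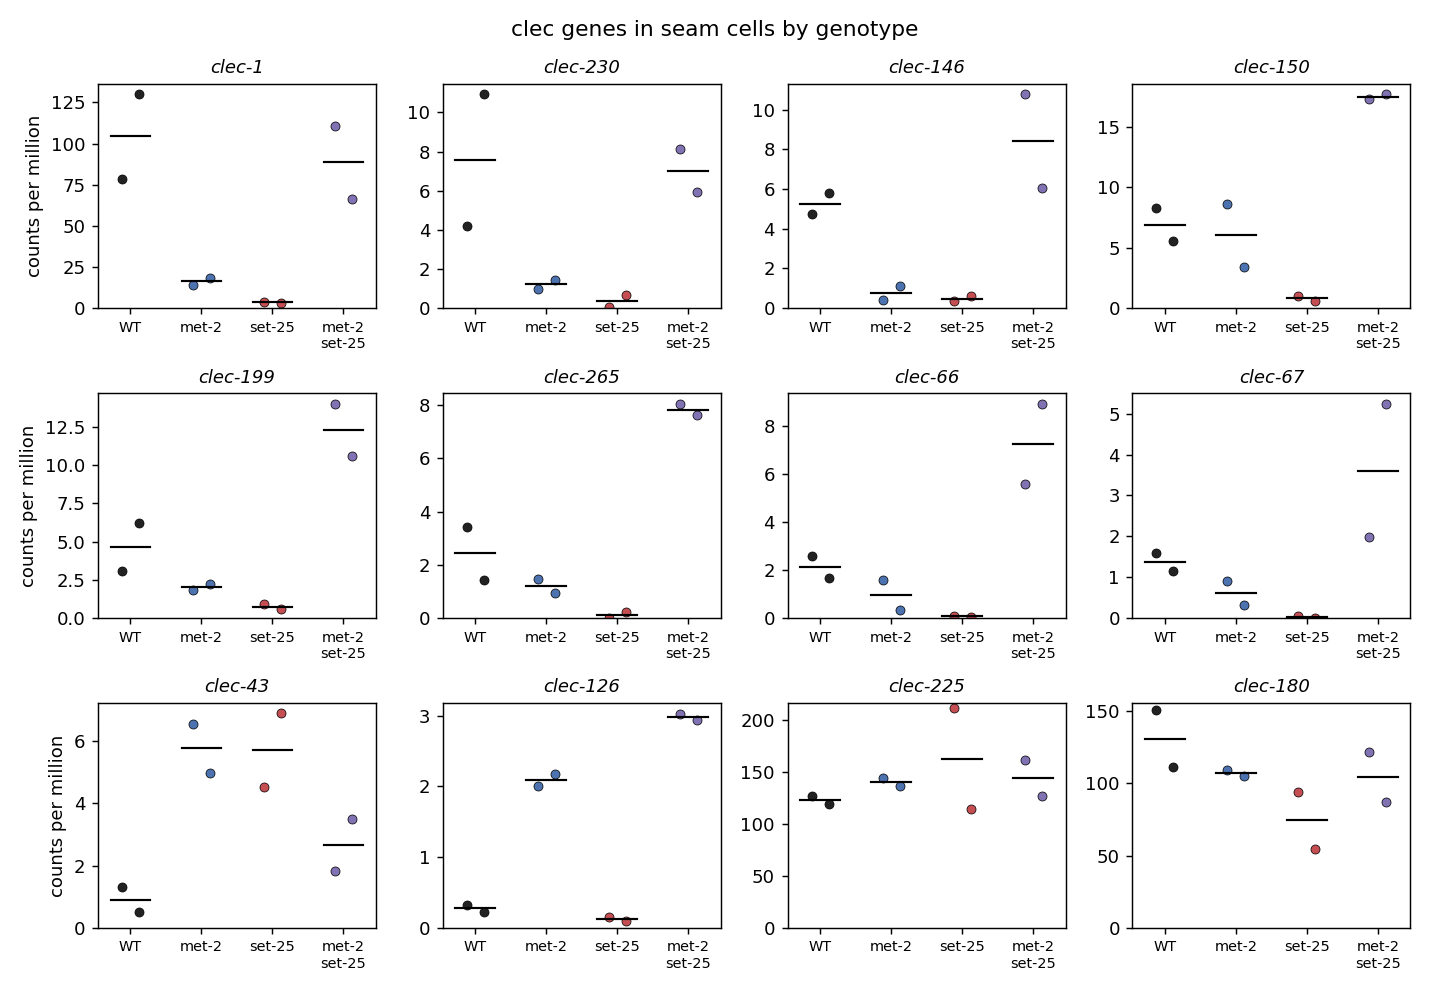
CPM (linear axis from 0, scaled per panel) of 12 *clec* genes in seam cells of the 4 genotypes, each library (points) with the group mean (bar). *clec-1* drops from 78.7 and 130.1 in WT to 3.75 and 3.38 in *set-25* and stands at 111 and 66.4 in the double mutant, while *clec-225* and *clec-180* stay at 54.6 or more in every library.

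In *met-2* seam cells 2 members were higher (3.08% of 65, all genes 2.08%) and 2 lower (3.08%, all genes 3.11%), shares near those of all genes. *clec-43* rose from 1.31 and 0.497 to 6.56 and 4.97 CPM (2.78 ± 0.51 (SE), adjusted p = 0.00843) and *clec-126* from 0.328 and 0.221 to 2.004 and 2.17 (3.02 ± 0.50 (SE), adjusted p = 0.00513). *clec-1* fell to 14.3 and 18.3 CPM (-2.56 ± 0.30 (SE), adjusted p = 0.00104) and *clec-146* to 0.401 and 1.11 (-2.67 ± 0.50 (SE), adjusted p = 0.00923). *clec-1* and *clec-146* were thus lower than WT, and *clec-43* higher, in both single mutants, which share the WT libraries as control. Leaving out either WT library removed both higher calls and left 1 lower call, and leaving out either *met-2* library removed all 4 calls. Adjusted p values then ran from 0.0106 to 0.0644.

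The double mutant differed from WT in 1 member. *clec-126* rose from 0.328 and 0.221 to 3.03 and 2.94 CPM (3.16 ± 0.49 (SE), adjusted p = 0.00498), 1.54% of the members where 2.16% of all genes were higher. No member was lower (all genes 0.723%), with 0 at an unadjusted p under 0.05 and 0 by DESeq2. The call of *clec-126* was lost without any 1 of the 4 libraries (adjusted p from 0.0266 to 0.0407). The median fitted change of the members was 0.97, beside 0.03 for all genes, and 16 members had an unadjusted p under 0.05 with a higher level. *clec-1* had 111 and 66.4 CPM (adjusted p = 0.286 against WT). *clec-63* had 80.6 and 139 CPM against 37.2 and 21.3 in WT (adjusted p = 0.0819) and *clec-50* 30.2 and 41.6 against 13.96 and 10.4 (adjusted p = 0.244), both with groups apart but short of the threshold. Both double mutant libraries lay above both WT libraries for 43 of the 65 members tested, beside 48.4% of all genes.

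Set against the *set-25* single mutant, the double mutant was higher in 26 of 65 members (40%), where 19.5% of all genes were, and lower in 0 (all genes 1.8%; 4 members at an unadjusted p under 0.05, 1 called by DESeq2). The median fitted change was 3.52 for the members (3.04 with 23 set to their bound) and 0.21 for all genes. All 8 members that were lower in *set-25* than in WT were among the 26, and the comparisons share the *set-25* libraries. The 4 with the highest CPM in the double mutant were *clec-63*, *clec-1*, *clec-50* and *clec-41*. From *set-25* to the double mutant the values went, for *clec-50*, from 0.888 and 0.856 to 30.2 and 41.6 CPM (4.83 ± 0.84 (SE), adjusted p = 0.001698), for *clec-63* from 6.17 and 3.04 to 80.6 and 139 (4.05 ± 0.62 (SE), adjusted p = 0.000872) and for *clec-1* from 3.75 and 3.38 to 111 and 66.4 (4.08 ± 0.33 (SE), adjusted p = 5.44e-05). *clec-41* followed, with 1.53 and 0.999 and 16.6 and 49.4 CPM (4.19 ± 0.64 (SE), adjusted p = 0.000876), its double mutant replicates far apart.

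*clec-265* rose to 8.04 and 7.62 CPM (5.43 ± 0.79 (SE), adjusted p = 0.000716), *clec-150* to 17.3 and 17.7 (3.90 ± 0.50 (SE), adjusted p = 0.000356) and *clec-17* from 0.345 and 0.0476 to 5.05 and 9.82 (4.69 ± 0.82 (SE), adjusted p = 0.00174). *clec-66* rose to 5.58 and 8.92 CPM from the floor, at least 49.9-fold. Of the 26, 18 stood in runs of neighbouring members, where 46.2% of the members tested did, and 6 lay on chromosome V, where 15 of the 65 tested did. The run *clec-62* to *clec-66* on chromosome II gave 4 of them, *clec-62*, *clec-63*, *clec-65* and *clec-66*, whose mean levels were 0.564, 29.2, 1.1 and 2.12 CPM in WT seam cells, 0.167, 4.61, 0.0969 and 0.0731 in *set-25* and 3.65, 109.9, 5.22 and 7.25 in the double mutant. *clec-62* and *clec-65* are named here after their values were seen. Neighbours did not always move together: *clec-225* and *clec-41* adjoin on V, and *clec-225* was not called in any seam comparison of genotypes while *clec-41* was higher in the double mutant than in both single mutants. Leaving out 1 library gave 15 (without *set-25* replicate 2) to 22 higher members. Without *set-25* replicate 2, *clec-50* and *clec-67* lost their calls (adjusted p = 0.011 and 0.01003).

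Against the *met-2* single mutant, 4 members were higher in the double mutant (6.15%, all genes 6.14%) and 0 lower (all genes 2.3%; 4 at an unadjusted p under 0.05, 1 called by DESeq2). The 4 were *clec-1* (14.3 and 18.3 to 111 and 66.4 CPM, 2.05 ± 0.29 (SE), adjusted p = 0.00177), *clec-146* (0.401 and 1.11 to 10.8 and 6.03, 3.08 ± 0.50 (SE), adjusted p = 0.00302), *clec-199* (1.803 and 2.22 to 14.02 and 10.6, 2.23 ± 0.40 (SE), adjusted p = 0.00456) and *clec-41* (3.51 and 2.28 to 16.6 and 49.4, 3.16 ± 0.59 (SE), adjusted p = 0.00551). The share is that of all genes. Without *met-2* replicate 1 the count was 1, without *met-2* replicate 2 it was 0, without double mutant replicate 1 it was 3 and without replicate 2 it was 2. The 4 named calls were lost without either *met-2* library, those of *clec-1*, *clec-146* and *clec-199* without double mutant replicate 1 and those of *clec-41* and *clec-199* without replicate 2, with adjusted p from 0.0106 to 0.0568. With library totals 12 members were higher, and 84.5% of all calls were higher against 72.7%.

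Some marker lists moved with these seam results and others did not. The summed CPM of 13 intestine markers were 279 and 189 in WT, 199.4 and 115 for *met-2*, 84.7 and 57.4 for *set-25* and 564 and 743 for the double mutant, the order of the family's own sum. The defining factor *elt-2* stayed at 0.0476 to 0.929 CPM in all 8 libraries, while the protease gene *asp-1* had 109 and 64.97 CPM in WT, 14.1 and 9.18 in *set-25* and 262 and 262 in the double mutant. The summed CPM of 9 seam markers followed the same order. WT had 1949.6 and 2017, *met-2* 1408 and 1273, *set-25* 837 and 604 and the double mutant 2678 and 3544. Those of 11 hypodermis markers had the reverse order, with 23958 and 26047, 32339 and 32126, 38124 and 35671 and 14172 and 17264 in turn. Body wall muscle markers, 10 genes, were also highest in *set-25*, with 3052 and 3024, 4360 and 4305, 4650 and 4378 and 2509 and 3164. Neuron markers, 8 genes, were above WT in each mutant, with 1024 and 979, 1237 and 1330, 1716 and 1448 and 1535 and 1332. Of these lists, only the intestine markers had median fitted log2 changes against WT in the order of their sums. For *met-2*, *set-25* and the double mutant they were -0.63, -1.66 and 1.1. In turn they were 0.09, 0.37 and -0.02 for seam markers and -0.27, 0.06 and -0.10 for hypodermis markers. Body wall muscle markers had -0.05, -0.50 and 0.30, and neuron markers 0.184, -0.886 and 0.755. *grd-10* made up most of the seam sum in WT and was the only seam marker called against WT, lower in *set-25*. *elt-3* was called lower in both single mutants, and *dpy-5* and *dpy-13* in the double mutant. The number of genes with 10 counts was 9778 and 9810 in *set-25* and 12898 and 12118 in the double mutant. The part of these differences in the *clec* results was not tested, and in bulk samples fewer cells of a type cannot be told apart from less RNA per cell.

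In muscle, no *clec* gene was called in any genotype. Of 23 members tested, none was higher or lower than WT in *met-2* (all genes 2.17% and 0.0655%), *set-25* (0% and 0%) or the double mutant (2.36% and 0.207%). The same held for the double mutant against *met-2* (0% and 0% of all genes) and against *set-25* (2.13% and 0.153%). DESeq2 called 0 members in all 5 comparisons. At an unadjusted p under 0.05 there were 3 higher and 0 lower members for *met-2*, 2 and 0 for *set-25*, 1 and 0 for the double mutant, 0 and 0 in the double against *met-2* and 1 and 1 against *set-25*. The member with the smallest adjusted p against WT in each genotype was *clec-264*.

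WT muscle had 88.9 and 87.3 CPM of *clec-264*. The levels were 147 and 155 for *met-2*, 135 and 105 for *set-25* and 110.1 and 129 for the double mutant. All 6 mutant libraries lay above both WT libraries. The fitted log2 changes were 0.75 ± 0.19 (SE), adjusted p = 0.0548 for *met-2*, 0.50 ± 0.19 (SE), adjusted p = 0.777 for *set-25* and 0.51 ± 0.19 (SE), adjusted p = 0.182 for the double mutant, none past the threshold. This gene is described in these comparisons because its values were seen. Over the alternatives tried, its adjusted p in *met-2* muscle ran from 0.00254 (DESeq2) to 0.322, and its change stayed under 2-fold. The other muscle members showed no such order: *clec-149* had 32.1 and 42.9, 37.5 and 28.5 and 24.5 and 27.2 CPM, with both double mutant libraries below WT (30.5 and 46.6), and *clec-221* had 14.96 and 9.56, 11.2 and 12.5 and 12.7 and 12.1 in *met-2*, *set-25* and the double mutant, each pair overlapping WT.

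Germline markers, 10 genes, had summed CPM of 45.7 and 22.4 in WT muscle and 1965 and 1955 in *met-2* muscle. In *set-25* muscle they had 86.1 and 40.7 and in the double mutant 2128 and 2132. Of 8 germline markers tested, 4 were called higher in *met-2* (*pgl-1*, *pgl-3*, *glh-1* and *gld-1*). The intestine factor *elt-2* was at 0 in all 8 muscle genotype libraries, but the list of 13 intestine markers was not absent there. Its summed CPM were 3077 and 3779 for WT muscle, above the 1005 and 1247 of WT non-muscle cells. Only 2 of the 13 had a mean above 5 CPM in WT muscle, against 5 in non-muscle cells. Of the 8 tested between these groups 1 was higher and 1 lower in muscle, with a median fitted log2 change of -1.25. Across the mutant muscle libraries the summed CPM ran from 2859 (double mutant) to 4598 (*set-25*). Whether these bear on *clec-264* was not tested.

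With auxin 1 member was called in degron muscle. *clec-230* had 3.89 and 2.52 CPM in untreated larvae and 0.287 and 0.421 in treated ones (-3.33 ± 0.56 (SE), adjusted p = 0.00244), 2.04% of the 49 members tested where 0.816% of all 11393 genes were lower. No member was higher (all genes 0.913%; 1 at an unadjusted p under 0.05, 0 by DESeq2). The call held without each of the 4 libraries in turn and was lost with library totals (adjusted p = 0.0249). Without the second replicate of the untreated group 2 members were higher. The sum of 11 hypodermis markers was also lower with auxin, 951 and 661 CPM without and 259.9 and 259.6 with it. Collagens led this, such as *sqt-3* (427 and 269 and 118.8 and 114 CPM). Of the 9 hypodermis markers tested, 4 were called lower (*dpy-5*, *rol-6*, *sqt-3* and *dpy-13*), and the median fitted log2 change was -0.08. The part of this difference in the *clec-230* value was not tested. Among the leading members no change was called. *clec-149* had 20.9 and 28.3 CPM in untreated and 29.4 and 25.5 in treated muscle (adjusted p = 0.924), *clec-63* 21.6 and 31.5 and 29.6 and 28.8 (adjusted p = 0.9504) and *clec-264* 22.1 and 24.05 and 24.7 and 28.4 (adjusted p = 0.891).

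Whether genotype acted differently in the 2 tissues was tested as an interaction over 16 libraries, at an adjusted p under 0.01. For *set-25* 1 of 66 members differed (1.79% of all 12887 genes did), with 18 at an unadjusted p under 0.05. It was *clec-150*, which fell in *set-25* seam cells and had 0.1397 and 0.151 CPM in WT muscle and 1.65 and 0.609 in *set-25* muscle, a fitted difference between the changes of -5.63 ± 0.97 (SE), adjusted p = 0.00431. Both WT muscle libraries were at the floor, so the size of this difference depends on the prior count of the fit and is no bound. The next, *clec-1*, had -3.67 ± 0.80 (SE), adjusted p = 0.01697. For *met-2* 0 of 66 members differed (all genes 0.504%; 12 at an unadjusted p under 0.05) and for the double mutant 0 of 66 (all genes 0.497%; 13). The auxin change in degron muscle was compared with the *met-2* change in muscle in the same way, and 0 of 45 members differed (all genes 0.523%; 7 at an unadjusted p under 0.05). These 4 tests were run with edgeR alone. The call of *clec-150* was lost in 7 of the 8 fits that left out 1 library, all but that without *set-25* muscle replicate 2 (adjusted p from 0.0101 to 0.0248).

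**Figure D5:**
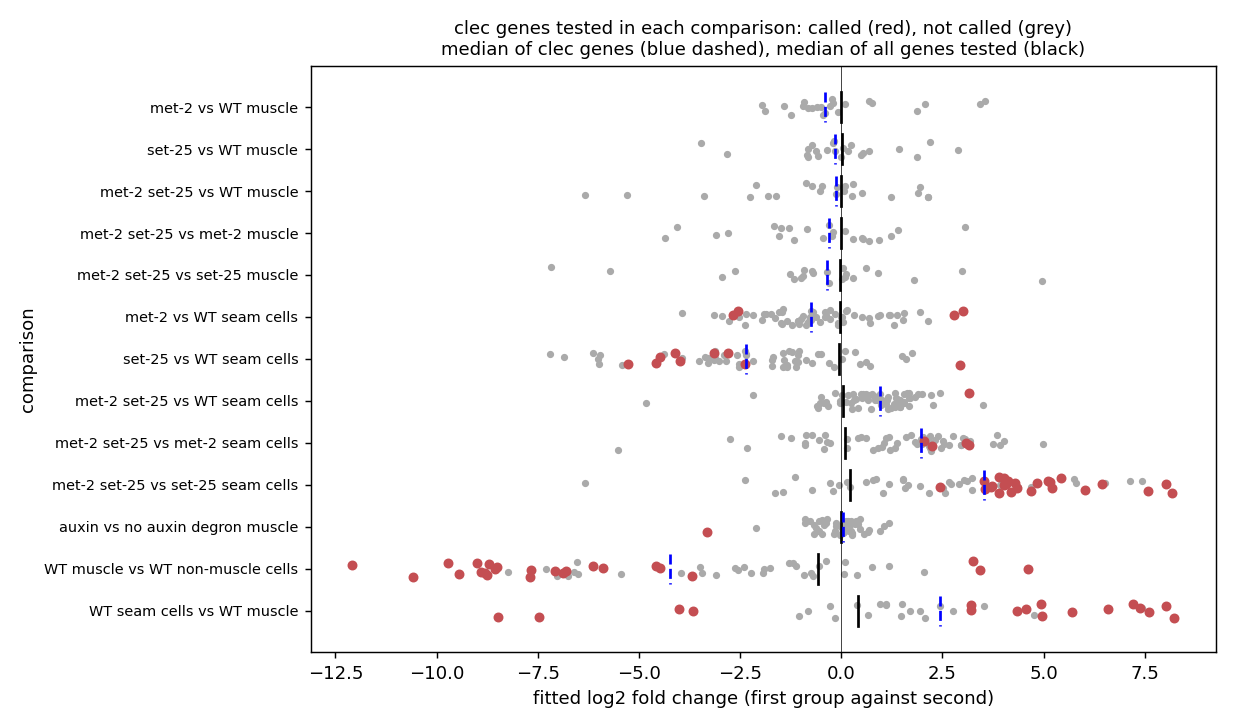
Fitted log2 fold change (horizontal axis, first group against second) of every *clec* gene tested in each of the 13 comparisons (rows). Red points were called and grey ones were not, blue dashed lines mark the median of the *clec* genes and black lines that of all genes tested. The medians lie apart most in the double mutant against *set-25* seam cells (3.52 and 0.21) and in muscle against non-muscle cells (-4.22 and -0.57).

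The 7 members known from pathogen response or proteoglycan work were followed in every group. *clec-60*, an intestinal gene induced by bacterial infection, reached at most 1.82 CPM, in double mutant seam cells (1.82 and 0.399), and was at 0 in all 8 muscle genotype libraries. *clec-70* had 0.0404 CPM in 1 library and none elsewhere, and its neighbour *clec-71* at most 0.299. *clec-4* had 1.03 and 0.0552 CPM in WT seam cells, 0.0493 and 0 in *set-25* and 1.09 and 3.44 in the double mutant (adjusted p = 0.0173 for the last pair, which was not called). *clec-67* had 1.98 and 5.23 CPM in double mutant seam cells, 1.28 and 1.21 in WT non-muscle cells and none in the WT, *met-2* and double mutant muscle libraries.

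*clec-85*, also a target of the PMK-1 pathway, was present at low levels throughout, with 1.89 and 1.96 CPM in WT muscle, 3.36 and 6.77 in non-muscle cells and 2.202 and 1.44 in WT seam cells. It had 0.197 and 0.1903 CPM in *set-25* seam cells (adjusted p = 0.0137 against WT) and 4.24 and 7.38 in the double mutant (4.35 ± 0.68 (SE), adjusted p = 0.000989 against *set-25*). *clec-87* shares 138 exonic bases with *iars-2* on the other strand. It had 4.78 and 1.05 CPM in WT seam cells, 1.04 and 0.714 in *set-25* and 5.05 and 10.8 in the double mutant (adjusted p = 0.0127 for the last pair). Of these 7 genes, only *clec-67* and *clec-85* were called in a seam comparison.

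The remaining innate immune genes were counted from lists drawn up with earlier results of these data known. Of the antimicrobial and immune effectors listed (lysozymes, saposin-like proteins, caenacins and others) 69 were tested in seam cells. In *set-25* 28 of them were lower and 0 higher than in WT (all genes 10.3% and 0.342%), among them the epidermal peptide genes *nlp-29* (86.9 and 101 to 4.59 and 3.38 CPM) and *cnc-4* (48.1 and 69.2 to 18.99 and 16.3) and the lysozyme gene *lys-1* (19.8 and 7.51 to 2.07 and 1.24). In *met-2* 12 were lower and 0 higher (all genes 3.11% and 2.08%), and in the double mutant 1 was lower and 0 higher (0.723% and 2.16%). The median fitted change of the list was -2.35 in *set-25* (all genes -0.05) and 0.59 in the double mutant (all genes 0.03). Against *set-25*, the double mutant was higher in 37 and lower in 2 (all genes 19.5% and 1.8%). Galectins, the other lectin family counted, had 4 of 12 lower in *set-25* seam cells (all genes 10.3%) and 7 of 12 higher in the double mutant against *set-25* (19.5%), and 0 called in *met-2* or in the double mutant against WT. Of the 15 immune regulators tested 1, the SMAD gene *sma-3*, was lower in *set-25* (10.3%). None of these lists had a called gene in a muscle genotype comparison against WT. With auxin, *lys-1* and *nlp-33* were the 2 called effectors of 58 tested, 1 in each direction (all genes 0.913% higher and 0.816% lower).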

How the data were processed

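Reads were counted by the authors with QuasR, per their methods: alignment with hisat2 to ce10, unique alignments only, reads overlapping WS220 exons in the gene's orientation. The deposited values are raw counts per gene in 3 tables of 22 libraries, 2 independent biological replicates a group. The labels name Smart-Seq2 and the series text ribosomal depletion, so whether the libraries keep strand is unsure, and members that overlap a gene on the other strand are uncertain.

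IDs were named from a newer annotation (19182 of 20392, 94.1%), used only for names, chromosome, order and overlap. The members, the other gene lists and the tests were chosen with earlier results of these data known. CPM and RPKM were computed from counts and library totals. Tests used edgeR 4.0.16 in R 4.3.3 (glmQLFit and glmQLFTest, TMM, filterByExpr, Benjamini-Hochberg adjustment over all genes), with the 4 genotypes of a tissue fitted together. A gene was called at an adjusted p under 0.01 with over 2-fold change in mean log2(count scaled to the mean library total + 8). Interactions needed the p alone. A group with 3 counts or fewer in both libraries gave a bound, computed from CPM by library totals without TMM. SE is the fitted change divided by the root of F. Named were the 5 highest members in N2 muscle, non-muscle cells, seam cells and untreated degron muscle, up to 8 called members a direction without overlap, called interactions, and 7 members known from pathogen response or proteoglycan work. *clec-264* in mutant muscle and *clec-62*, *clec-65*, *clec-67* and *clec-85* in some comparisons were added after their values were seen. Alternatives were other scalings, no filter, DESeq2 1.42.0, the contrast's libraries alone, a replicate block and leaving out each library. The fits were tested on simulated data.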

Additional observations from a re-analysis of the deposited data

Results flagged for a closer look

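*clec-150* differed between tissues in its *set-25* change, by -5.63 on the log2 scale (seam cells minus muscle, edgeR's interaction test, adjusted p = 0.00431). Its libraries read 8.29 and 5.52 CPM in WT seam cells and 1.04 and 0.571 in *set-25* seam cells, and 0.14 and 0.151 in WT muscle and 1.65 and 0.609 in *set-25* muscle. The muscle values are low, and both WT muscle libraries were at the floor of 3 counts or under, so the fitted size depends on the prior count and is no bound.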

How the results depend on the processing

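Among the results for named genes under alternatives, 520 kept their call or its absence, 94 lost a call and none turned its direction. In *met-2* seam cells the lower members (2) were 1 with DESeq2 size factors, 7 without a filter, 1 with the contrast's libraries alone and 0 to 1 with 1 library left out, and the higher members (2) were 1 with library totals and 0 with any library left out. In *set-25* seam cells the lower members (8) were 13 with library totals, 27 without a filter, 17 with DESeq2, 5 with the contrast's libraries alone and 2 to 4 with 1 library left out, and the higher member (1) became 0 with the contrast's libraries alone and 0 to 1 with 1 left out. In the double mutant (*met-2 set-25*) against WT the higher members (1) were 15 without a filter, 2 with DESeq2, 0 with the contrast's libraries alone and 0 with any library left out. Against *met-2* the higher members (4) were 12 with library totals, 33 without a filter, 17 with DESeq2, 8 with the contrast's libraries alone and as few as 0 with 1 left out, and the lower (0) were 1 without a filter and 1 with DESeq2. Against *set-25* the higher members (26) were 47 without a filter and 15 to 22 with 1 left out, and the lower (0) were 1 without a filter and 1 with DESeq2. With auxin the lower member (1) became 0 with library totals, and the higher (0) became 2 without untreated replicate 2. Muscle against non-muscle cells gave 34 lower members with library totals and as few as 12 with 1 library left out, and seam cells against muscle 20 higher with library totals, 20 without a filter and as few as 4 with 1 left out. Members differing between effects were, without a filter, 5 for *met-2*, 8 for *set-25*, 3 for the double mutant and 1 for auxin, and for *set-25* 2 with library totals and 0 to 1 with 1 library left out. At 5 RPKM the members counted were 5 in WT muscle, 31 in non-muscle cells, 10 in WT seam cells and 10 in untreated degron muscle. The causes were not tested.

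Library totals moved the all-gene median of fitted log2 changes by over 0.1 in 7 comparisons, for example from -0.05 to -0.34 in *set-25* seam cells and from 0.21 to 0.74 in the double mutant against *set-25*, and the members' median kept its sign under each scaling. Same-numbered libraries did not deviate together (r from -0.102 to 0.0745 in muscle, -0.0751 to 0.148 in seam cells, 0.103 for WT muscle and non-muscle cells, -0.232 in degron muscle), so numbers were not taken as pairs. With the replicate block *met-2* seam cells had 1 higher and 1 lower member and seam cells against muscle 6 higher. Named calls lost with the block were those of *clec-43* and *clec-146* in *met-2* seam cells (adjusted p = 0.01302 and 0.01203), *clec-265* and *clec-67* in *set-25* seam cells (0.01092 and 0.01404), and *clec-199*, *clec-146* and *clec-67* in seam cells against muscle (0.02546, 0.02314 and 0.073). Crossed numbers in degron muscle, chosen after seeing the data, gave 1 higher member and 1 lower. With 2 libraries a group and many members at a few counts, differences in low members were often not detectable at this depth.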
